A study of Mus musculus with 9 samples.

Results

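Endothelial identity and leukocyte adhesion genes were examined in bulk RNA-seq of mouse kidney. The 8 genes, of 54532 in the count files, were chosen by name. Pecam1, Kdr, Cdh5 and Emcn mark endothelial cells, and Vcam1, Icam1, Selp and Sele encode the molecules on which leukocytes roll and adhere. Each was found by its Ensembl identifier in all 9 libraries, and all 8 passed the filter on low counts that left 16646 genes for testing.

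The libraries formed 3 groups of 3. The paper places all of its mice on the C57BL/6J background, so the 3 groups share it. WT was kidney of wild-type mice, with no treatment or age given in the labels. Trex1-/- PBS was kidney of mice lacking the exonuclease TREX1 that were given the vehicle in PBS, and Trex1-/- SN-011 was kidney of such mice given the STING antagonist SN-011 at 10 mg per kg. Both were injected daily for 2 weeks from an age of 1 month, and both carried the same whole-body Trex1 deletion. The WT mice were bought, whereas the Trex1-/- mice came from matings of heterozygotes. Genotype, origin and any difference in age therefore cannot be told apart between WT and the Trex1-/- groups. The labels number the libraries without saying that each came from its own mouse, and p-values measure the spread between these libraries.

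TREX1 degrades DNA in the cytosol. Where that DNA accumulates, cGAS senses it and signals through STING to interferon genes and to NF-κB. Endothelial cells line every blood vessel and, in the kidney, also the glomerular capillaries. At rest they keep their identity by VE-cadherin (Cdh5) at their junctions, PECAM-1 (Pecam1) at their contacts, VEGF receptor 2 (Kdr), which takes up the VEGF signal from podocytes and tubules, and the sialomucin endomucin (Emcn). When cytokines activate them, the selectins P-selectin (Selp) and E-selectin (Sele) catch leukocytes in flow, and VCAM-1 (Vcam1) and ICAM-1 (Icam1) bind leukocyte integrins so that the cells arrest and cross the wall. Vcam1 and Icam1 are not restricted to endothelium, since injured tubule cells and leukocytes can also express them.

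The libraries held 16118813 to 21928965 counts. Levels are given in CPM, the counts of a gene per 1000000 counts of its library after TMM scaling. Within groups, log CPM correlated at 0.966 to 0.993 across genes, and replicates differed by 7.76 to 76.0 times counting noise, so no pair agreed within it as 1 library deposited again would. This does not show that the libraries came from separate animals. Trex1 had 0 counts in every library, WT included, and all 1147 of its exonic bases lie within Atrip on the same strand, so its count did not check the labels. Atrip itself held 14.4 to 16.1 CPM in WT, 40.3 to 48.5 in Trex1-/- PBS and 37.1 to 37.6 in Trex1-/- SN-011. Its log2 fold change against WT was 1.56 (SE 0.0962) in Trex1-/- PBS, with an adjusted p of 4.9e-05 by edgeR. Sex-linked reads split the groups. All 3 Trex1-/- PBS libraries, WT replicate 3 and SN-011 replicate 2 had 153 to 188 CPM of Y-linked reads, and the other 4 had Xist reads and at most 0.377 CPM of Y-linked reads.

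In GRCm38, Pecam1 (ENSMUSG00000020717) lies at chr11:106654217-106750628 on the minus strand, Kdr (ENSMUSG00000062960) at chr5:75932827-75978458 on the minus strand, Cdh5 (ENSMUSG00000031871) at chr8:104101625-104144511 on the plus strand and Emcn (ENSMUSG00000054690) at chr3:137341067-137432185 on the plus strand. Vcam1 (ENSMUSG00000027962) lies at chr3:116109949-116129688 on the minus strand and Icam1 (ENSMUSG00000037405) at chr9:21015985-21028817 on the plus strand. The selectin genes are neighbours on the plus strand of the same chromosome, Sele (ENSMUSG00000026582) at chr1:164048234-164057677 and Selp (ENSMUSG00000026580) at chr1:164115264-164150026. Antisense genes overlap 11.7% of the exonic bases of Icam1, 14.1% of those of Selp and 0.688% of those of Vcam1. Whether strand was used in counting is not given in the sources used here, so reads of these stretches cannot be told apart from antisense reads. No exonic base of the other 5 genes is shared.

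RefSeq promoter sequences (GRCm38.p6) were given for 5 of the 8 genes. The 250 bases upstream of the start are shown for Icam1, an inducible adhesion gene, for Sele, an inducible selectin, and for Kdr, an identity gene, to set the first gene beside a selectin with few reads and a gene with little variation. Letters of 3 motifs were searched on both strands and are in capitals. They are GGAAATTCC, an exact form of the NF-κB element, the STAT form TTCNNNGAA and the interferon form GAAANNGAA, where N is any base. Other forms of the NF-κB element were not searched. The STAT form reads the same on both strands, and no matches of different motifs overlapped in these windows. These motifs were chosen after the sequences were seen.
Icam1, chr9:21015690-21015939, plus strand: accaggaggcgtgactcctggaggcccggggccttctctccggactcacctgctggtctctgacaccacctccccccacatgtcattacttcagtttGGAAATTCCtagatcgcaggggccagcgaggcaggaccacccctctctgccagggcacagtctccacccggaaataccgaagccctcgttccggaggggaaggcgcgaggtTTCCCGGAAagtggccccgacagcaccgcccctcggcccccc
Sele, chr1:164047984-164048233, plus strand: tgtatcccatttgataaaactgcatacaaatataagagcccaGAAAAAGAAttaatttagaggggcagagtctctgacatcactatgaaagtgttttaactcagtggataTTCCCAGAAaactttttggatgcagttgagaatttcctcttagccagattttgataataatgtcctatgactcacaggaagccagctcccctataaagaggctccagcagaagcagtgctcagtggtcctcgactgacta
Kdr, chr5:75978456-75978705, minus strand: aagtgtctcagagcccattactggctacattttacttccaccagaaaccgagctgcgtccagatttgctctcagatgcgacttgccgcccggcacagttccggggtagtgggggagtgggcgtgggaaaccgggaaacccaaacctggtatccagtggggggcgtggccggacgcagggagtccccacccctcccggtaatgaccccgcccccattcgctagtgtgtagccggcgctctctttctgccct

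Distances count back from the RefSeq start just after each window, which for Icam1, Kdr and Emcn differs from the gene position given above. Icam1 held GGAAATTCC from 153 to 145 bases before its RefSeq start and the STAT form TTCCCGGAA from 42 to 34 bases before it. Sele held the STAT form TTCCCAGAA from 140 to 132 bases before its start and the interferon form GAAAAAGAA from 208 to 200 bases before it. None of the 3 motifs was found in the windows of Kdr, Selp or Emcn. Of 32851 promoters of the same length, 0.286% held the exact NF-κB form, 7.02% the STAT form and 7.13% the interferon form. The absence of the exact NF-κB form from a window does not exclude other NF-κB forms there. A match of letters is a description of the sequence and not a measured site.

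The identity genes were the most abundant of the 8. On the scale of CPM per kb of exon, which compares levels between genes, the mean over the 9 libraries was 15.3 ± 1.37 (SD, n = 9) for Pecam1, 13.6 ± 1.83 for Cdh5, 13.4 ± 1.23 for Kdr and 12.9 ± 1.56 for Emcn. The ranges of these 4 genes overlapped, and neighbours in this order did not differ beyond their spread. Icam1 followed at 5.41 ± 1.23 and Vcam1 at 2.27 ± 0.716 CPM per kb, in ranges that overlapped neither each other nor those of the identity genes. Sele and Selp were at 0.165 ± 0.0893 and 0.102 ± 0.0521 CPM per kb, with overlapping ranges.

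The coefficient of variation over the 9 libraries followed another order. It was 8.96% for Pecam1, 9.18% for Kdr, 12.1% for Emcn and 13.5% for Cdh5. It was 22.7% for Icam1 and 31.6% for Vcam1. For Selp and Sele it was 51.0% and 54.1%, at 3 to 16 counts per library, so the selectins were measured with large counting error.

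**Figure D1:**
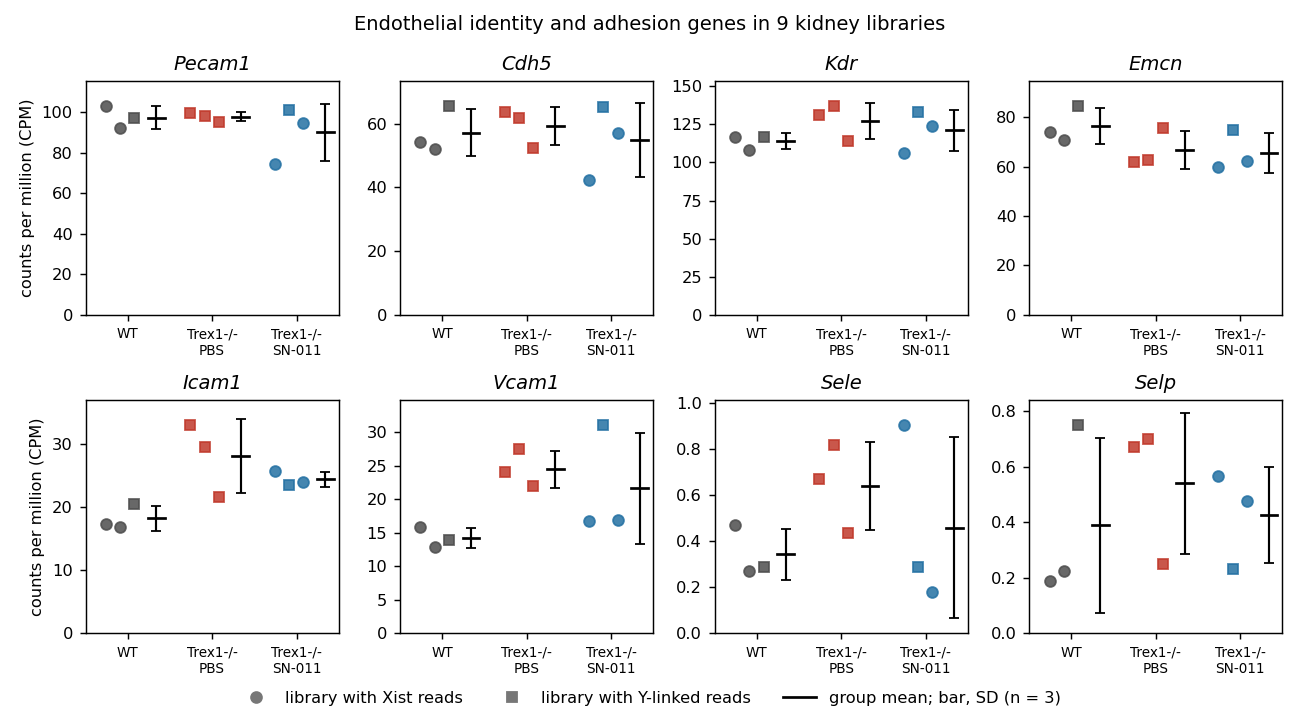
Level of each of the 8 genes in CPM (vertical axes, linear from 0, a different range in each panel) in the 9 kidney libraries, by group. Circles are libraries with Xist reads and squares libraries with Y-linked reads, and bars give the mean and SD of 3 libraries. All WT points of Vcam1 and Icam1 lie below every point of both Trex1-/- groups, while the groups of the other 6 genes overlap.

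Trex1-/- PBS was compared with WT to ask how loss of TREX1 changed these genes. Vcam1 and Icam1 were the 2 members whose groups did not overlap, both higher in Trex1-/- PBS, where 25.4% of all genes tested did not overlap and 13.1% were higher. None of the 8 passed the adjusted threshold of 0.05 that 1.88% of all genes passed, so neither is called changed. At an unadjusted p under 0.05 there were 2 of 8, against 15.2% of all genes.

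Vcam1 was at 15.9, 12.9 and 13.9 CPM in WT and at 24.1, 27.4 and 21.9 CPM in Trex1-/- PBS. The lowest Trex1-/- PBS library stood above the highest WT library. The log2 fold change was 0.78 (SE 0.223, 95% interval 0.29 to 1.28), a fold of 1.72, with an edgeR adjusted p of 0.126. Icam1, the ligand of the integrins LFA-1 and Mac-1, was at 17.4, 16.8 and 20.5 CPM in WT and at 33.1, 29.5 and 21.6 CPM in Trex1-/- PBS. Replicate 3 of Trex1-/- PBS stood close to WT replicate 3, and the other 2 were well above it. The log2 fold change was 0.62 (SE 0.150, 95% interval 0.29 to 0.96), a fold of 1.54, with an edgeR adjusted p of 0.0722.

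Whether Vcam1 and Icam1 passed the threshold depended on the fit. Each was called in 5 of 20 alternative fits, and of the 9 that left out 1 library Vcam1 was called in 1 and Icam1 in 2. The adjusted p ran up to 0.488 for Vcam1, with a term for Y-linked reads, and up to 0.465 for Icam1, in the libraries with Y-linked reads alone. The share of all genes called was above 1.88% in most of the fits that called them, at 2.29% without filter, 4.36% by DESeq2 Wald, 4.1% by the exact test, 4.64% with 6 libraries and 4.55% without SN-011 replicate 2, but 1.27% without Trex1-/- PBS replicate 3. Without a filter beyond 1 read, the edgeR adjusted p was 0.0150 for Vcam1 and 0.0152 for Icam1, and by the DESeq2 Wald test it was 0.0266 and 0.0112. With only the 6 libraries of the comparison it was 0.00857 for Vcam1 and 0.059 for Icam1. Without SN-011 replicate 2, a library that is in the fit but not in this comparison, the edgeR adjusted p was 0.00526 for Vcam1 and 0.0474 for Icam1. Without Trex1-/- PBS replicate 3 it was 0.0145 for Icam1.

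No identity gene separated between these groups. Pecam1 was at 103, 92.1 and 97.0 CPM in WT and at 99.6, 98.1 and 95.3 CPM in Trex1-/- PBS, and its log2 fold change of 0.00 had a 95% interval of -0.25 to 0.25. Cdh5 was at 54.1, 52.0 and 65.5 CPM in WT and at 63.5, 61.7 and 52.4 CPM in Trex1-/- PBS, with a log2 fold change of 0.05 (-0.29 to 0.39). The ranges of both genes overlapped, and changes up to the ends of these intervals remain possible. Kdr was at 117, 108 and 117 CPM in WT and at 131, 137 and 114 CPM in Trex1-/- PBS, with a log2 fold change of 0.16 (-0.08 to 0.39). Emcn was at 74.2, 70.7 and 84.5 CPM in WT and at 61.8, 62.7 and 75.6 CPM in Trex1-/- PBS, with a log2 fold change of -0.20 (-0.46 to 0.07). The edgeR adjusted p of the 4 identity genes was between 0.466 and 0.993. In bulk kidney, fewer cells of a type and less RNA per cell cannot be told apart, and the same holds for more of either.

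Selectin transcripts were too few to show a change of the size seen for Vcam1. Selp had 4, 5 and 13 counts in WT and 11, 12 and 4 in Trex1-/- PBS, with a log2 fold change of 0.53 (95% interval -0.83 to 1.89). Sele had 10, 6 and 5 counts in WT and 11, 14 and 7 in Trex1-/- PBS, with a log2 fold change of 0.88 (-0.39 to 2.15). The groups overlapped for both selectins, and a difference was not detectable at this depth.

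**Figure D2:**
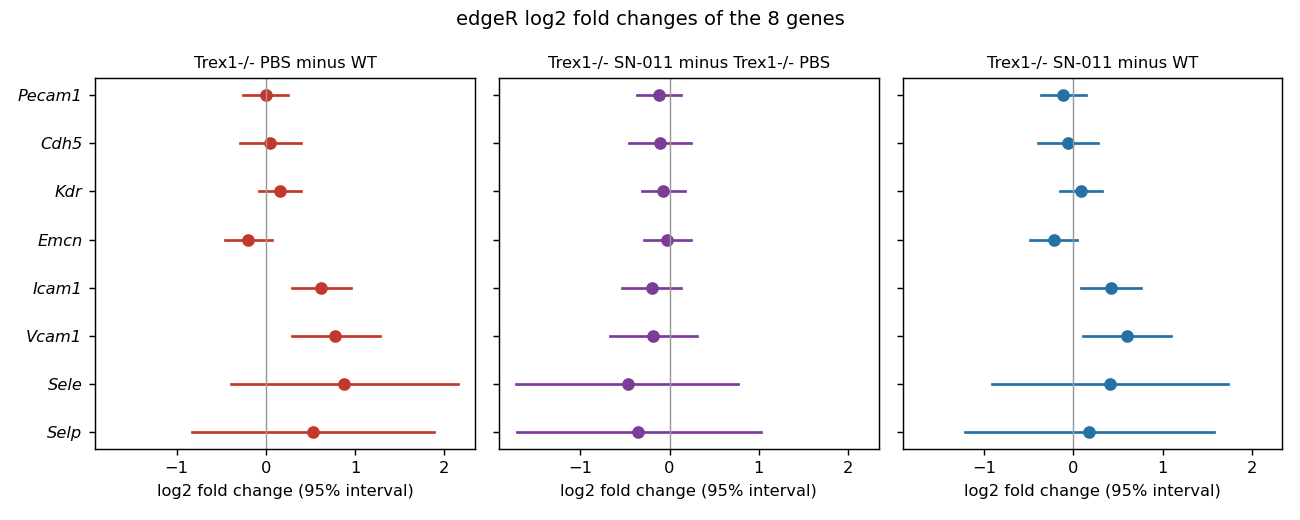
Log2 fold change of the 8 genes (horizontal axis, points) with its 95% interval from the edgeR fit (lines) in each of the 3 comparisons, 3 libraries a group. The intervals of Vcam1 and Icam1 lie above 0 in both comparisons with WT and cross 0 between SN-011 and PBS, and the intervals of the selectins are the widest.

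Trex1-/- SN-011 was compared with Trex1-/- PBS to ask what blocking STING did to these genes. None of the 8 was called, and none of the 16646 genes was called (0%) by edgeR's quasi-likelihood test, although 1905 had an unadjusted p under 0.05 and the DESeq2 Wald test called 183. The count rested on SN-011 replicate 2, which differed from the other 2 libraries of its group by 66.8 and 76.0 times counting noise, against 15.5 between those 2. Without it, edgeR's test called 519 genes (3.05%). Replicate 2 is also the only SN-011 library with Y-linked reads, which all 3 PBS libraries have, so without it treatment and sex-linked reads cannot be told apart. With a term for Y-linked reads 0 genes were called, and within the libraries with Y-linked reads, where SN-011 has replicate 2 alone, 107 (0.616%). Without SN-011 replicate 3 the test called 22 (0.129%). With no filter beyond 1 read it called 127 (0.411%). All 8 log2 fold changes were below 0, from -0.47 for Sele to -0.03 for Emcn, against 51.1% of all genes. No member had an unadjusted p under 0.05, against 11.4% of all genes, and no member's groups separated, against 16.1% (7.74% higher and 8.41% lower).

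Vcam1 was at 16.8, 31.1 and 16.9 CPM in Trex1-/- SN-011. Replicate 2 was the highest of the 9 libraries, and the other 2 stood below every Trex1-/- PBS library and just above WT. The log2 fold change against PBS was -0.18 (SE 0.220, 95% interval -0.67 to 0.31) with an edgeR adjusted p of 0.789. Without SN-011 replicate 2 it was -0.54 with an adjusted p of 0.0564, in a fit that sets SN-011 libraries with Xist reads against PBS libraries with Y-linked reads. With the term for Y-linked reads the value was 0.076, of the opposite sign. Icam1 was at 25.8, 23.5 and 24.0 CPM in Trex1-/- SN-011, the tightest group of this gene, and lay inside the range of Trex1-/- PBS. Its log2 fold change against PBS was -0.20 (SE 0.149, 95% interval -0.53 to 0.13), with an edgeR adjusted p of 0.647.

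Pecam1 was at 74.3, 101 and 94.7 CPM, Cdh5 at 42.3, 65.2 and 57.1 CPM, Kdr at 106, 133 and 124 CPM and Emcn at 59.7, 74.8 and 62.2 CPM in Trex1-/- SN-011. SN-011 replicate 1 was the lowest of the 9 libraries for all 4 identity genes, and replicate 2 the highest of its group. Without replicate 1 the log2 fold changes against PBS were 0.0054 for Pecam1, 0.047 for Cdh5, 0.018 for Kdr and 0.038 for Emcn. Selp had 10, 4 and 8 counts and Sele 16, 5 and 3 counts in this group, and their intervals against PBS ran from -1.71 to 1.02 and from -1.72 to 0.77.

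Trex1-/- SN-011 was also compared with WT, and this comparison shares libraries with both others. None of the 8 genes was called, against 1.28% of all genes (0.823% higher and 0.457% lower), and 2 of 8 had an unadjusted p under 0.05, against 18% of all genes. Vcam1 and Icam1 again did not overlap with WT and were higher, against 11.8% of all genes higher and 21.7% in either direction. Of the 8, 3 were below 0, against 50.5% of all genes. The log2 fold change of Vcam1 was 0.60 (SE 0.223, 95% interval 0.11 to 1.10) with an edgeR adjusted p of 0.196, and that of Icam1 was 0.42 (SE 0.150, 95% interval 0.09 to 0.76) with an adjusted p of 0.183. Without SN-011 replicate 2 the value of Vcam1 was 0.24, and that of Icam1 was 0.45. Emcn was at -0.22 (-0.48 to 0.04), and the other 5 members were between -0.11 and 0.41.

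Sex-linked reads moved with some of these values. Among the 4 libraries with Xist reads, Vcam1 averaged 14.4 CPM in WT and 16.8 CPM in Trex1-/- SN-011. Among the 5 with Y-linked reads it was 13.9 CPM in the WT library, 24.5 CPM on average in Trex1-/- PBS and 31.1 CPM in the SN-011 library. Both SN-011 libraries with lower Vcam1 thus had Xist reads. With a term for Y-linked reads in the fit, the log2 fold change of Vcam1 in Trex1-/- PBS against WT was 0.47 (edgeR adjusted p 0.488) and that of SN-011 against PBS had an adjusted p of 0.946. The term itself was 0.45 (SE 0.188) for Vcam1, 0.35 (SE 0.121) for Cdh5 and 0.26 (SE 0.0953) for Emcn, with edgeR adjusted p of 0.238, 0.158 and 0.182. For the other members it was 0.09 (SE 0.158) for Icam1, 0.13 for Pecam1, 0.14 for Kdr, 0.51 for Selp and -0.63 for Sele, with adjusted p of 0.536 to 0.824. None of the 8 was called for the term, against 3.65% of all genes.

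Fits within each kind of library were added after seeing the data. They rest on 1 WT and 1 SN-011 library among those with Y-linked reads, which are assumed to vary like Trex1-/- PBS, and on 2 libraries a group among those with Xist reads. Within the Y-linked libraries, Vcam1 was at 0.82 (edgeR adjusted p 0.0742) in Trex1-/- PBS against WT and 0.37 (0.319) in SN-011 against PBS. SN-011 against WT has 1 library a group there and was not tested. Within the Xist libraries, Vcam1 was at 0.23 (edgeR adjusted p 0.463) in SN-011 against WT. Icam1 was at 0.45 (0.465) and -0.23 (0.667) in the same 2 comparisons within the Y-linked libraries, and at 0.54 (0.0486) in SN-011 against WT within the Xist libraries. Trex1-/- PBS held no library with Xist reads, so its comparisons could not be made there.

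Vcam1 and Icam1 were also given relative to the identity genes. The geometric mean of the identity genes was 77.8 to 89.1 CPM in WT and 81 to 84.9 CPM in Trex1-/- PBS. Between these groups the ratios therefore largely repeat the separation in CPM. Vcam1 was 19.1%, 16.5% and 15.6% of the geometric mean CPM of Pecam1, Cdh5, Kdr and Emcn in WT. It was 28.4%, 32.3% and 27.1% in Trex1-/- PBS and 25.2%, 34.5% and 21.0% in Trex1-/- SN-011. Icam1 was 20.9%, 21.5% and 23.0% in WT, 39.1%, 34.8% and 26.6% in Trex1-/- PBS and 38.7%, 26.1% and 29.8% in Trex1-/- SN-011. Neither ratio overlapped between WT and either Trex1-/- group, and the Trex1-/- groups overlapped each other. These ratios reuse the same counts, were not computed for other genes and were not tested.

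**Figure D3:**
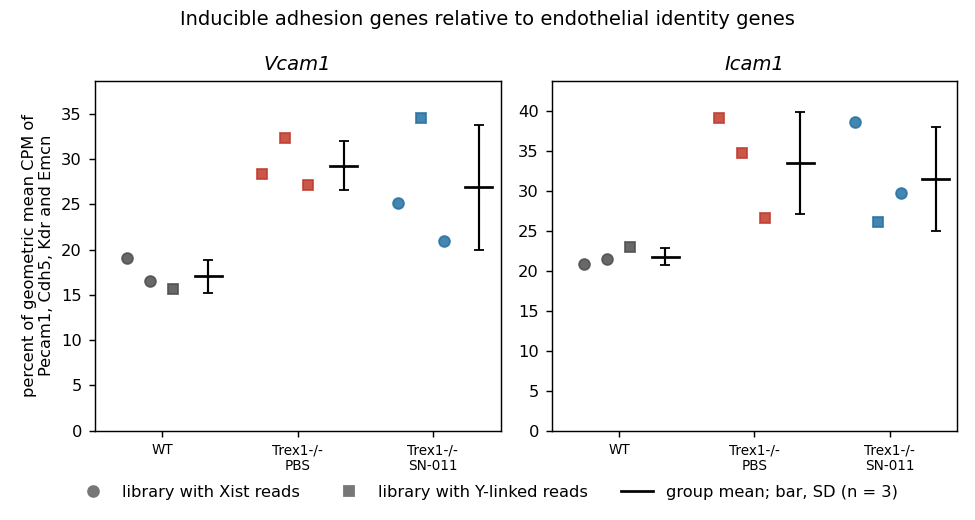
Vcam1 and Icam1 as a percentage of the geometric mean CPM of the identity genes Pecam1, Cdh5, Kdr and Emcn (vertical axes, linear from 0) in each of the 9 libraries, by group. Circles are libraries with Xist reads, squares libraries with Y-linked reads, and bars the mean and SD of 3 libraries. WT lies between 15.6% and 19.1% for Vcam1 and between 20.9% and 23.0% for Icam1, below every Trex1-/- library.

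Across the 9 libraries the members varied together to different degrees. Pearson's r of log2 CPM was 0.815 between Pecam1 and Cdh5, 0.803 between Kdr and Cdh5, 0.773 between Vcam1 and Kdr, 0.663 between Vcam1 and Icam1, and -0.652 between Icam1 and Emcn. The 9 points share libraries, groups and scaling, so these are descriptions. Among 14836 genes with a mean of at least 1 CPM, those most like Vcam1 over the 9 libraries were Ttll4 (r = 0.979), E2f5 (0.978) and Inpp5b (0.971). Among those most like Cdh5 were App (0.968) and Sgtb (0.938). Leaving out 1 library kept r between 0.964 and 0.993 for the genes named for Vcam1 and between 0.878 and 0.984 for those named for Cdh5.

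Several leukocyte partners of the adhesion molecules passed the test. Of 12 counter-receptor genes, 4 rose in Trex1-/- PBS against WT and none fell, against 1.44% of all genes called higher and 0.439% called lower. The median log2 fold change was 0.82, beside 0 over all genes tested, and 9 of 12 had groups that did not overlap, against 25.4% of all genes. Spn, the sialomucin CD43 that E-selectin can bind, was at 3.25, 2.85 and 2.60 CPM in WT, 7.31, 7.77 and 6.34 in Trex1-/- PBS and 4.19, 5.45 and 5.10 in Trex1-/- SN-011. It rose by 1.29 (SE 0.180) on the log2 scale with an edgeR adjusted p of 0.00412. All 3 groups of Spn were apart from each other, with SN-011 in the middle. Of all genes, 25.4% did not overlap in PBS against WT, 16.1% in SN-011 against PBS and 21.7% in SN-011 against WT.

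Itgb2, the β chain that LFA-1 and Mac-1 share, was at 5.38, 5.42 and 7.17 CPM in WT, 14.1, 12.9 and 13.9 in Trex1-/- PBS and 6.86, 11.7 and 9.14 in Trex1-/- SN-011. Itgal, the α chain of LFA-1, was at 3.02, 4.52 and 4.57 CPM in WT, 9.13, 10.6 and 8.45 in Trex1-/- PBS and 4.65, 7.01 and 5.70 in Trex1-/- SN-011. For both chains every Trex1-/- PBS library was above every other library. Itgb2 rose by 1.19 (SE 0.199) and Itgal by 1.22 (SE 0.215) on the log2 scale, with edgeR adjusted p of 0.0125 and 0.0161. Itgb7, a β chain that pairs with the VCAM-1 receptor chain α4, was at 4.10, 3.57 and 3.41 CPM in WT, 8.22, 8.17 and 8.76 in Trex1-/- PBS and 4.70, 6.03 and 6.41 in Trex1-/- SN-011. It rose by 1.18 (SE 0.168) on the log2 scale, with an edgeR adjusted p of 0.00482. Named after their values were seen, Itga4, the α4 chain itself, was at 0.48 (edgeR adjusted p 0.393), and Selplg, the ligand of P-selectin, at 0.54 (0.440).

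Without WT replicate 1, WT replicate 2 or Trex1-/- PBS replicate 1, and within the Y-linked libraries, 2 of 12 were called, where 0.942%, 0.954%, 0.919% and 1.43% of all genes were called in these 4 fits. The calls of Spn and Itgb7 were kept in every alternative fit. Itgal missed the threshold in 6 of them, the Y-linked term included (0.98, edgeR adjusted p 0.0922), and Itgb2 in 5, including the fit of Y-linked libraries alone (0.92, adjusted p 0.0513). In SN-011 against PBS, Itgal was at -0.70, Itgb2 at -0.56, Itgb7 at -0.55 and Spn at -0.54, each lower without overlap (8.41% of all genes) and each with an edgeR adjusted p between 0.281 and 0.322. With the term for Y-linked reads Itgb2 was at -0.26, Itgal at -0.47, Itgb7 at -0.56 and Spn at -0.52, and within the Y-linked libraries they were at -0.19, -0.40, -0.45 and -0.37. The list median was -0.42, beside -0.01 over all genes, and none of the 12 was called in this comparison. In SN-011 against WT the median was 0.52, none was called and the 4 genes were at 0.52 to 0.76.

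Leukocyte markers were also at higher summed levels in Trex1-/- PBS. The summed level of 14 leukocyte markers was 120 to 143 CPM in WT, 187 to 215 in Trex1-/- PBS and 106 to 181 in Trex1-/- SN-011, with reads for 12 to 14 of the 14 in each library. Of 11 that were tested, all had a log2 fold change above 0 in Trex1-/- PBS against WT and 9 did not overlap. Of all genes, 49.4% were below 0 and 13.1% were higher without overlap. Of the 11, Cd4 rose (1.61, edgeR adjusted p 0.0329), where 1.44% of all genes were called higher, and it was called in 11 of the 19 alternative fits that tested it. Ptprc, the CD45 of all leukocytes, was named after its values were seen and was at 0.91 (adjusted p 0.0557). The part of leukocytes in the values of Vcam1 and Icam1 was not tested. Platelet markers, which bear on Selp because platelets store P-selectin, summed to 13.1 to 15.2 CPM over all libraries, with reads for 3 to 5 of 6 markers. Of these 2 were tested and none was called in any comparison. Of all genes, 1.88% were called in PBS against WT, 0% in SN-011 against PBS and 1.28% in SN-011 against WT. Itga2b made up most of the sum, at 10.9 to 13.5 CPM. Pf4, a platelet chemokine named after its values were seen, was at 0.896, 0.542 and 1.16 CPM in WT, 1.40, 1.69 and 1.62 in Trex1-/- PBS and 1.02, 1.33 and 2.26 in Trex1-/- SN-011. It was higher in Trex1-/- PBS than in WT without overlap (0.87, SE 0.377, edgeR adjusted p 0.309), as were 13.1% of all genes. The part of Pf4 in the values of Selp was not tested. Markers of injured tubule, a further source of Vcam1, summed to 2200 to 2520 CPM in WT, 1550 to 1990 in Trex1-/- PBS and 1670 to 2490 in Trex1-/- SN-011, so their sum was lower in every Trex1-/- PBS library than in WT. That difference was carried by Spp1, an abundant secreted glycoprotein, at 1740, 1640 and 1930 CPM in WT and 1240, 1040 and 1390 in Trex1-/- PBS (-0.53, edgeR adjusted p 0.315). Without Spp1 the other 7 summed to 560 to 603 CPM in WT and 508 to 596 in Trex1-/- PBS, which overlap. Havcr1, the injury marker KIM-1, was at 1.65, 1.45 and 16.0 CPM in WT and 2.44, 3.39 and 3.29 in Trex1-/- PBS, and Lcn2 was at 5.42, 4.56 and 28.2 and at 14.2, 17.9 and 9.57 CPM. Both were highest in WT replicate 3, and Trex1-/- PBS lay above the other 2 WT libraries. These 3 genes were named after their values were seen. None of the 8 markers of injured tubule was called in any comparison, beside the shares of all genes given for the platelet markers. The part of injured tubule in the values of Vcam1 and Icam1 was not tested.

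Most other endothelial genes had values below WT that did not pass the test. All 28 of this list passed the low-count filter, and none was called in Trex1-/- PBS against WT. There were 22 with a log2 fold change below 0, against 49.4% of all genes, and 9 were lower without overlap, against 12.3%. The list median was -0.15, beside 0 over all genes. Without SN-011 replicate 2, 6 of the 28 were called, against 4.55% of all genes in that fit, and by the DESeq2 Wald test also 6, against 4.36%. Named after their values were seen, Tek, the angiopoietin receptor, was at -0.33 (edgeR adjusted p 0.0646), Cldn5, the tight-junction claudin, at -0.73 (0.0975), and Sox17, an arterial transcription factor, at -0.68 (0.0666), while its relative Sox18 was at 0.41 (0.0721).

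In SN-011 against WT, 1 of these 28 genes, Plvap, fell, where 0.457% of all genes were called lower, and 11 were lower without overlap, against 9.99% of all genes. Plvap, which forms the diaphragms of fenestrated capillaries, was at 384, 388 and 458 CPM in WT, 313, 291 and 311 in Trex1-/- PBS and 267, 282 and 302 in Trex1-/- SN-011. All Trex1-/- libraries were below all WT libraries. The log2 fold change was -0.53 (SE 0.102) with an edgeR adjusted p of 0.0383 in SN-011 against WT, and -0.43 (SE 0.101) with 0.0688 in PBS against WT. The call in SN-011 against WT was lost in 9 of 20 alternative fits, among them 7 of the 9 that left out 1 library.

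Of the genes that signal to the members, none in the following lists was called. Of 10 VEGF and angiopoietin genes none was called in any comparison, against 1.88%, 0% and 1.28% of all genes in PBS against WT, SN-011 against PBS and SN-011 against WT. The median in Trex1-/- PBS against WT was -0.20, beside 0 over all genes, with 8 of 10 below 0 (49.4% of all genes) and 3 lower without overlap (12.3%). Angpt2, which destabilises vessels by opposing TEK, was at -0.41 (edgeR adjusted p 0.200), and Vegfb at -0.25 (0.250). Of 20 cytokine and NF-κB genes 15 were tested and none was called in any comparison. The median in Trex1-/- PBS against WT was 0.15, beside 0 over all genes. Of the 15, 12 were above 0, where 49.4% of all genes were below it, and 5 were higher without overlap (13.1% of all genes). Tnf, Lta, Il1a, Il6 and Ifng, which encode inducers of adhesion molecules, had too few counts to be tested, at most 16 in a library.

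Relb, the noncanonical NF-κB subunit, was at 10.9, 10.6 and 9.08 CPM in WT, 15.3, 17.1 and 13.2 in Trex1-/- PBS and 15.5, 14.3 and 13.2 in Trex1-/- SN-011. WT lay below both Trex1-/- groups. Of all genes, 13.1% were likewise higher than WT without overlap in Trex1-/- PBS and 11.8% in Trex1-/- SN-011. The log2 fold change of Relb in Trex1-/- PBS against WT was 0.57 (SE 0.134) with an edgeR adjusted p of 0.0648. Ltb, which encodes lymphotoxin β, was at 1.03 (SE 0.346) with an adjusted p of 0.190.

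Of 9 adherens and tight junction genes none was called in any comparison. Of all genes, 1.88% were called in PBS against WT, 0% in SN-011 against PBS and 1.28% in SN-011 against WT. The list median in Trex1-/- PBS against WT was -0.08, beside 0 over all genes. Of the 9, 6 were below 0 (49.4% of all genes) and 3 were lower without overlap (12.3%). The source of these transcripts among kidney cells was not tested. Cdh2, the neural cadherin, was at -0.87 (edgeR adjusted p 0.322) and Afdn, the afadin of junctions, at 0.17 (0.483). Of 16 other adhesion genes 13 were tested, and 1 was called, against 1.88% of all genes (1.44% higher). Cd47, a cell-surface brake on phagocytosis that also acts in leukocyte crossing, was at 85.6, 79.9 and 83.0 CPM in WT, 122, 125 and 120 in Trex1-/- PBS and 100, 113 and 101 in Trex1-/- SN-011. It rose by 0.56 (SE 0.0797) on the log2 scale, with an edgeR adjusted p of 0.00461. Its 3 groups did not overlap, as for 25.4% (PBS against WT), 16.1% (SN-011 against PBS) and 21.7% (SN-011 against WT) of all genes. In the fit of Y-linked libraries alone it was also at 0.56, with an adjusted p of 0.0825.

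**Figure D4:**
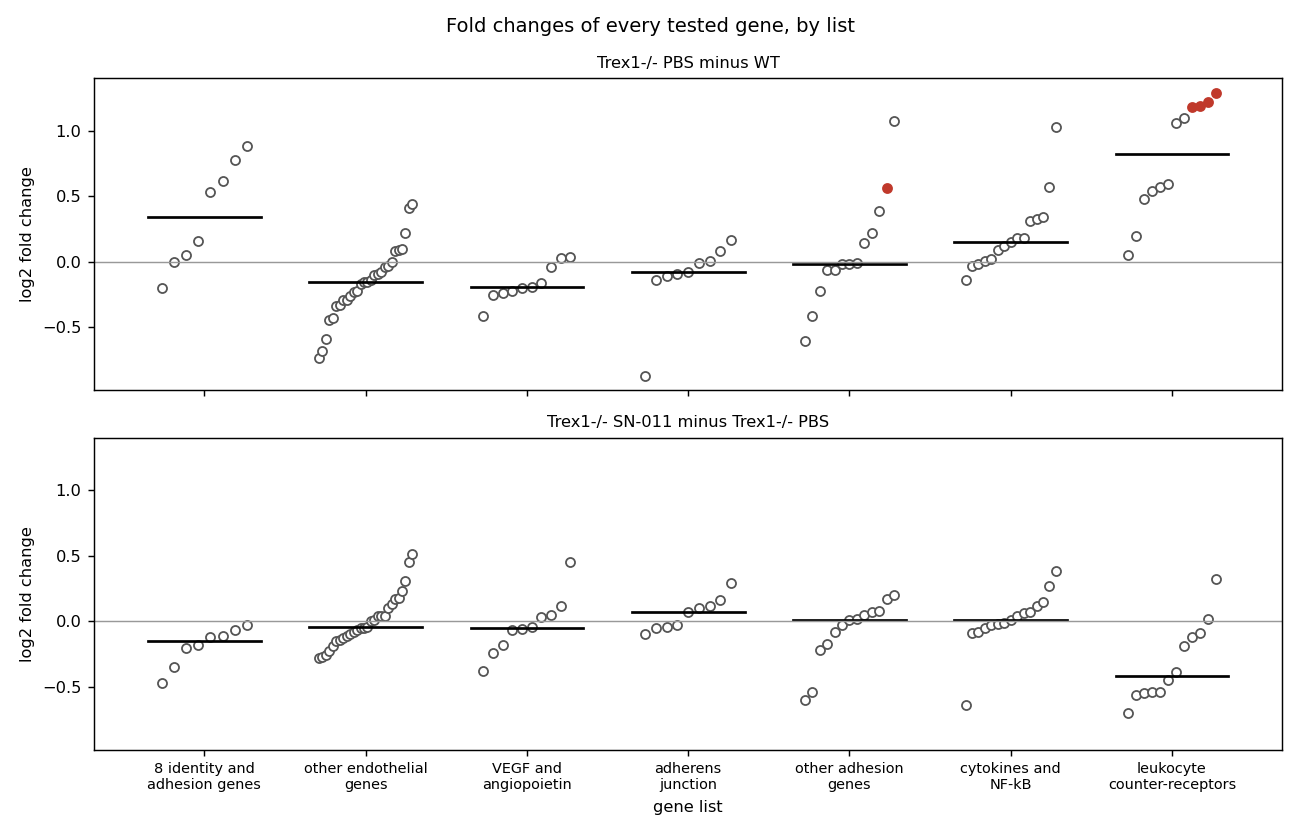
Log2 fold change (vertical axes, the same in both panels) of every tested gene in 7 gene lists, ordered within each list, for Trex1-/- PBS against WT (top) and Trex1-/- SN-011 against Trex1-/- PBS (bottom). Filled points have an edgeR adjusted p under 0.05 and horizontal bars are list medians. In the upper panel 4 counter-receptor genes and Cd47 are filled, and no point of the lower panel is.

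Pericyte and fibroblast markers summed to 289 to 410 CPM in WT, 365 to 436 in Trex1-/- PBS and 312 to 333 in Trex1-/- SN-011, and 1 of 8, Des, fell in SN-011 against WT (-0.82, edgeR adjusted p 0.0486), where 0.457% of all genes were called lower. The call of Des was lost in 10 of 20 alternative fits, among them 8 of the 9 that left out 1 library. Nephron markers summed to 17400 to 19100 CPM in WT, 15800 to 16700 in Trex1-/- PBS and 16600 to 16900 in Trex1-/- SN-011. Lymphatic markers summed to 34.3 to 46.6 CPM over all libraries, and their members differed in direction. Named after its values were seen, Lyve1, a hyaluronan receptor that macrophages can also express, was at 1.04, 0.497 and 1.62 CPM in WT, 3.29, 2.28 and 4.29 in Trex1-/- PBS and 1.02, 2.96 and 1.54 in Trex1-/- SN-011. It was higher in Trex1-/- PBS than in WT without overlap (1.66, SE 0.477, edgeR adjusted p 0.131), as were 13.1% of all genes. Prox1 and Flt4, also named after their values were seen, were at -0.42 (edgeR adjusted p 0.517) and 0.04 (0.925). None of 8 nephron and 3 lymphatic markers was called in any comparison. Of all genes, 1.88% were called in PBS against WT, 0% in SN-011 against PBS and 1.28% in SN-011 against WT. In PBS against WT, 3 nephron markers were lower without overlap, against 12.3% of all genes.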

How the data were processed

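PolyA-selected RNA of 9 mouse kidney libraries was sequenced as paired reads. The authors trimmed the reads with Trimmomatic, aligned them to mm10 with HISAT2 and deposited raw counts, made with featureCounts from uniquely mapped pairs, for each Ensembl gene. Versions and the strand setting are not given in the sources used here. Symbols and positions came from GENCODE vM21 (GRCm38), which matched 54409 of 54532 identifiers.

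Counts were analysed with edgeR 4.0.16 in R 4.3.3. Genes were kept by filterByExpr (minimum count 10, total 15), libraries were scaled by TMM, and all 9 entered 1 quasi-likelihood fit with Benjamini-Hochberg adjustment over 16646 genes. A gene was called at an adjusted p under 0.05. CPM were scaled by TMM, and per kb divided by exonic length. The steps were tested on simulated data. Alternatives used DESeq2 1.42.0 and limma 3.58.1 among others. The genes named were the 8 members, list genes that were called in any comparison, in a list without one its 2 genes of smallest p for Trex1-/- PBS over WT, and the 3 most like Vcam1 and Cdh5, of which 1 is not reported here. Other list genes given with values were named outside this rule, after their values were seen. Members and lists were chosen with earlier results of these data known.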

Additional observations from a re-analysis of the deposited data

How the results depend on the processing

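Of 21 alternative fits, 2 were chosen after seeing the data (libraries with Y-linked reads only, libraries with Xist reads only). With 3 libraries a group and 3 to 16 selectin counts per library, folds of the size seen for Vcam1 were below the limit of the selectins.

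Members called in Trex1-/- PBS against WT were 2 with no filter beyond 1 read, by DESeq2 Wald and by the exact test, and 1 with only the 6 libraries of the comparison; in SN-011 against WT they were 1 in the Xist libraries. Other endothelial genes called in Trex1-/- PBS against WT were 1 with upper-quartile factors, a mean of at least 50 counts or the replicate block, 3 without filter or by the exact test, 6 by DESeq2 Wald and 5 in 6 libraries, and in SN-011 against WT 5 by DESeq2 Wald, 2 with the Y-linked term and 0 in 6 libraries. Counter-receptors called were 2 in the Y-linked libraries for Trex1-/- PBS against WT, and in SN-011 against WT 3 by DESeq2 Wald, 1 by the exact test and 1 with the Y-linked term. Other adhesion genes called were 2 without filter or by DESeq2 Wald and 0 in the Y-linked libraries for Trex1-/- PBS against WT, and 1 by DESeq2 Wald or with the Y-linked term for SN-011 against WT. Cytokine and NF-κB genes called were 1 without filter, by DESeq2 Wald, by the exact test, in 6 libraries and with the replicate block for Trex1-/- PBS against WT, and 1 by DESeq2 Wald for SN-011 against WT; VEGF genes called there were 1 without filter, by DESeq2 Wald and by the exact test. Of all genes, the share called in Trex1-/- PBS against WT was 1.95% with upper-quartile factors, 2.29% without filter, 2.09% at 50 counts, 4.36% by DESeq2 Wald, 4.1% by the exact test, 4.64% in 6 libraries, 1.87% with the replicate block and 1.43% in the Y-linked libraries. In SN-011 against WT it was 1.96% without filter, 4.97% by DESeq2 Wald, 3.61% by the exact test, 0.264% in 6 libraries, 3.94% with the Y-linked term and 2.78% in the Xist libraries.

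Leaving out each library in turn, members called in Trex1-/- PBS against WT ran from 0 to 2, other endothelial genes from 0 to 6, counter-receptors from 2 to 4 and cytokine genes from 0 to 1, where the share of all genes called ran from 0.897% to 4.55%. In SN-011 against PBS, counter-receptors and other adhesion genes each ran from 0 to 1. In SN-011 against WT, other endothelial genes ran from 0 to 2, and counter-receptors and junction genes each from 0 to 1. The upper ends came mostly without SN-011 replicate 2, where the share of all genes called was also the highest in each comparison (4.55%, 3.05% and 2.21%).

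Values that changed sign were all of genes not called. In Trex1-/- PBS against WT, Pecam1 was -0.0041 with DESeq2 size factors and by DESeq2 Wald, -0.021 with upper-quartile factors, -0.00079 without filter, -0.00092 at 50 counts and -0.083 with the Y-linked term, Cdh5 was -0.18 with that term, and in the Y-linked libraries Cdh5 was -0.15 and Selp -0.47. In SN-011 against PBS, the Y-linked term gave 0.076 for Vcam1, 0.015 for Selp, 0.019 for Kdr, 0.11 for Cdh5, 0.14 for Emcn, 0.42 for Cdh2 and 0.045 for Afdn, and the Y-linked libraries gave 0.37 for Vcam1, 0.077 for Pecam1, 0.09 for Kdr, 0.16 for Cdh5, 0.19 for Emcn, 0.66 for Cdh2 and 0.14 for Afdn. Leaving out 1 library, Pecam1 ran from -0.036 to 0.041 and Cdh5 from -0.015 to 0.16 in Trex1-/- PBS against WT. In SN-011 against PBS, Pecam1 ran from -0.21 to 0.0054, Kdr from -0.15 to 0.018, Cdh5 from -0.26 to 0.047, Emcn from -0.13 to 0.079, Angpt2 from -0.077 to 0.16, Vegfb from -0.11 to 0.023, Relb from -0.17 to 0.02, Cdh2 from -0.69 to 0.22 and Afdn from -0.12 to 0.052. In SN-011 against WT, Selp ran from -0.15 to 1, Sele from -0.55 to 0.78, Pecam1 from -0.21 to 0.0088 and Cdh5 from -0.21 to 0.096. The cause of these changes was not tested.

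The replicate numbers did not meet the criterion for pairing, a correlation over 0.1 in every pair: deviations of same-numbered libraries correlated at -0.294 to 0.242 over all groups, and at 0.198, 0.242 and 0.0981 between SN-011 and PBS. The best match carried the same number in 11 of 18 cases, where 6 would be expected of unrelated numbers, which is a hint from the data and not from the design. With the replicate block, Vcam1 was at 0.77 (edgeR adjusted p 0.12) in Trex1-/- PBS against WT, and all genes called there were 312 against 313. Over all genes that comparison gave 726 calls by DESeq2 Wald, 707 without filter, 751 in 6 libraries and 198 with the Y-linked term, and 153 to 774 with 1 library left out. With 1 library left out, SN-011 against PBS gave 0 to 519 and SN-011 against WT 38 to 376.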
